A study of Mus musculus with 42 samples.

Results

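Bone marrow-derived macrophages of aged mice (18 to 20 months) were compared between day 3 after a 24 h exposure to β-glucan and the end of that exposure, to describe which changes reversed during the rest and which were still there. The comparison rests on 6 of the 42 libraries of the series, 3 from day 3 and 3 from 24 h, taken by their labels and not by any measured value. All cells came from male wild-type C57BL/6 mice and differentiated from whole marrow under M-CSF, the growth factor of macrophages, with no sort in the labels. Day 3 cells had been given β-glucan at 5 µg/mL for 24 h and were harvested 3 days afterwards, and 24 h cells were harvested after 24 h of the same dose. Aged control cells (3 libraries) had been given 0.1% normal saline for 24 h and were harvested 3 days afterwards. Day 3 and control were therefore matched in time, 24 h and control were not, and the rest cannot be told apart from 3 more days in culture. Cells of young mice (10 to 12 weeks) given the same treatments, and aged cells after 4 h of β-glucan at the same dose, served for 2 further comparisons. The labels call the replicates biological and do not say whether a library is 1 mouse or a pool.

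β-glucan is a polysaccharide of the fungal cell wall that macrophages bind through the lectin receptor Dectin-1 (Clec7a). The receptor signals through the kinase Syk and the CARD9, BCL10 and MALT1 complex to NF-κB, and the first wave of transcripts holds cytokines, chemokines and inhibitors that shut the pathway off again. Exposure to β-glucan is best known for trained immunity, in which cells that have returned to rest answer a later stimulus differently, so that what stays changed after the stimulus is a question of its own.

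The 6 libraries held 42433774 to 52860745 counts, and all 12 defining markers of macrophages were detected in each, with a summed level of 29100 to 32400 CPM (counts scaled to the size of the library) on day 3, 32500 to 35600 CPM at 24 h and 34300 to 36300 CPM in control. Markers of other cells were low or at intermediate levels. The 12 of T and NK cells summed to 1.56 to 5.32 CPM on day 3, 3.33 to 7.96 CPM at 24 h and 3.29 to 5.61 CPM in control, with 8 of them, among them Cd3d, Cd3e and Cd8a, at 0 in all 9 libraries. Those of B and plasma cells summed to 19.4 to 27.3 CPM on day 3, 31.2 to 70.7 CPM at 24 h and 21.5 to 26.6 CPM in control, and those of neutrophils to 73.6 to 79.0, 64.7 to 114 and 83.5 to 99.4 CPM in the same order, with Mpo, Elane and Ly6g at 0. Stromal markers summed to 122 to 194 CPM on day 3, 116 to 182 CPM at 24 h and 91.9 to 242 CPM in control, endothelial and adipocyte markers to 137 to 172, 121 to 171 and 102 to 125 CPM, and erythroid and megakaryocyte markers to 114 to 132, 97 to 168 and 164 to 212 CPM. Dendritic cell markers summed to at most 8.51 CPM and those of mast cells and basophils to at most 2.51 CPM in these libraries. The part of any of these cells in the results was not tested. One library stood apart, the first of the 24 h libraries. Its mean log2 CPM over 48 genes of DNA replication and mitosis was 4.70, against 6.01 and 5.95 in the other 24 h libraries and 5.92 to 6.08 on day 3. Over 43 interferon-stimulated genes its mean log2 CPM was 5.24, against 4.35 and 3.86 in the other 24 h libraries. Among the young 24 h libraries, replicates 1 and 3 had the same pair of values (4.85 and 4.98 for replication, 5.33 and 4.88 for interferon) and replicate 2 did not (5.99 and 4.21). Calls that were lost without the first aged 24 h library are given beside most of the genes named, and the part of cell density, RNA quality or harvest in this split was not tested.

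Between 24 h and day 3 transcripts mostly fell. Of 17648 genes tested, 330 were lower on day 3 (1.87%) and 55 were higher (0.312%) at an adjusted p below 0.05 (edgeR quasi-likelihood test, 2.18% called in all). The falls were also the larger changes, with a median log2 fold change of -0.92 among genes called lower and 0.51 among genes called higher, and 150 falls but 5 rises reached 2-fold. The day 3 and 24 h libraries did not overlap for 373 of the 385 called genes, against 16.2% of all tested genes. Without the first 24 h library 112 genes were lower and 11 higher, and 119 of these 123 were among the 385 with the same direction. Leaving out the second day 3 library gave 210.0 calls and leaving out the third gave 240.0. When the 6 libraries were fitted alone, with fewer residual degrees of freedom, 67 were lower and 12 higher.

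Seen from control, 922 genes (5.22%) differed after 24 h of β-glucan, 709 higher (4.02%) and 213 lower (1.21%), and 39 (0.221%) differed on day 3, 24 higher (0.136%) and 15 lower (0.085%). The 24 h count was 312 without the first 24 h library, 535 without the first control library and 401 without the second. With total counts in place of TMM scaling the 24 h split was 482 higher and 416 lower and the day 3 split 18 higher and 23 lower. Of the 922 genes, 286 (31.0%) were called the opposite way between 24 h and day 3 and are named reversed here: 249 that had been higher and 37 that had been lower. Another 28 (3.04%) were called the same way on day 3 as at 24 h and are named persisted, 23 higher and 5 lower, of which 3 were also reversed in part. The remaining 611 (66.3%) passed neither test. The 440 of these that had been higher had a median log2 difference from control of 0.47 at 24 h and 0.23 on day 3. For the 171 that had been lower the medians were -0.49 and -0.22. Between 24 h and day 3 no gene was called again in the direction it had taken at 24 h. Without the first 24 h library 74 genes were reversed, and without the second day 3 library 157. Persisted genes share the control libraries between both calls and late genes the day 3 libraries, where a deviation enters with the same sign. No genes chosen in other libraries are set beside those 2 classes. Reversed genes share the 24 h libraries between both steps, where a deviation enters with opposite signs. For these, genes chosen in other libraries are set beside them. In young cells 2037 genes (11.5%) were called at 24 h. Of the 1375 of these that were higher (7.79%), 267 were lower on day 3 than at 24 h in aged cells (19.4%) and 0 were higher. Of the 662 that were lower (3.75%), 34 were higher in aged cells (5.14%) and 0 were lower. After 4 h in aged cells 1141 genes were called (6.47%), 860 higher (4.87%) and 281 lower (1.59%). Of the 860, 186 were lower on day 3 than at 24 h (21.6%) and 0 were higher. Without the first aged 24 h library, 92 of the genes higher at 24 h in young cells and 78 of those higher after 4 h in aged cells were lower on day 3, and without the second day 3 library 149 and 118. Of the genes lower at 24 h in young cells, 4 to 22 were higher without the first aged 24 h library (4), the second or the third day 3 library (11 and 13), or the first or the third young 24 h library (21 and 22).

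**Figure D1:**
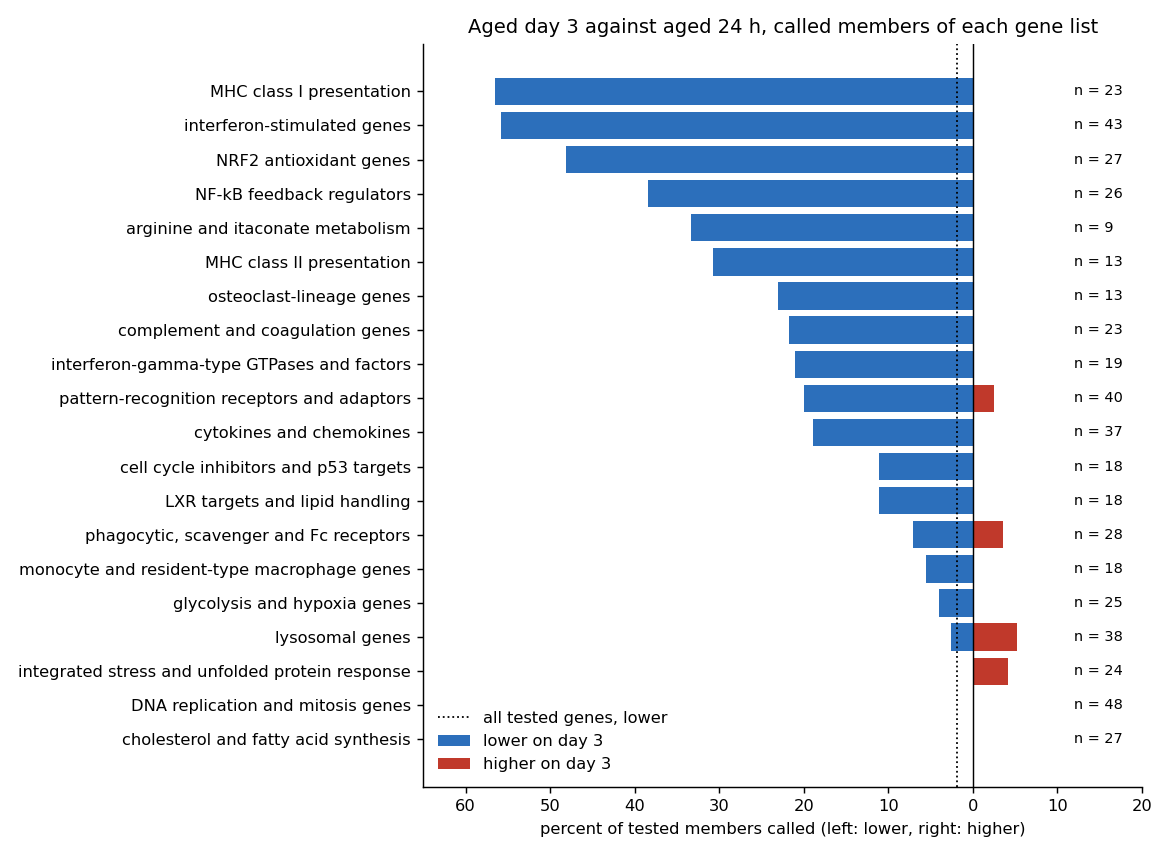
Percent of the tested members of 20 gene lists that were called in aged day 3 against aged 24 h (edgeR, adjusted p below 0.05), lower to the left and higher to the right, with the number tested at the right edge. The dotted line marks the 1.87% of all tested genes that were lower. MHC class I presentation (13 of 23) and interferon-stimulated genes (24 of 43) had the highest shares of falls, and no member of the 2 lists at the bottom was called.

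Some inflammatory mediators fell, as did some NF-κB regulators. Of 37 cytokine and chemokine genes 7 were lower on day 3 and 0 higher, with a median log2 fold change of -0.50 over the list against -0.01 over all tested genes, and on day 3 none of the 37 was called against control. Cxcl2, a chemokine that attracts neutrophils, had 4.93, 5.62 and 4.37 CPM on day 3, against 29.6, 24.9 and 39.1 CPM at 24 h. Control libraries had 9.30, 8.22 and 3.60 CPM. Every day 3 library was below every 24 h library and the day 3 and control ranges overlapped (log2 fold change -2.65 ± 0.43 (SE), edgeR adjusted p = 0.000308). Tnf, the cytokine that drives much of the acute response, had 16.8, 15.4 and 17.9 CPM on day 3, 40.4, 48.1 and 51.1 CPM at 24 h and 21.3, 26.1 and 24.2 CPM in control, and here the day 3 libraries lay below the control range too. Its fall passed the test (log2 fold change -1.47 ± 0.21 (SE), edgeR adjusted p = 6.13e-05), and its difference from control on day 3 did not (log2 fold change -0.51 ± 0.21 (SE), edgeR adjusted p = 0.54). Il1a, an alarmin of the interleukin-1 family, was lower too (log2 fold change -1.96 ± 0.35 (SE), edgeR adjusted p = 0.000849). Il1rn, the antagonist of the same receptor, had 41.6, 25.6 and 26 CPM on day 3, against 106, 67.3 and 74 CPM at 24 h. Control libraries had 20.00, 12 and 11.5 CPM. Its day 3 libraries sat between the other groups without touching either (log2 fold change -1.40 ± 0.29 (SE), edgeR adjusted p = 0.004, and adjusted p = 0.136 on day 3 against control). Cxcl2, Tnf, Il1a and the membrane chemokine Cxcl16 stayed called without the first 24 h library, whereas Il1b, Il1rn and Ccl5 did not (log2 fold changes -1.03, -1.18 and -1.54, edgeR adjusted p = 0.687, 0.0775 and 0.484). Ccl4, a chemokine for monocytes and T cells, had 45, 44.9 and 45.6 CPM on day 3 and 52.9, 44.2 and 40.3 CPM at 24 h, ranges that overlapped, with 31.1, 27.8 and 37.7 CPM in control.

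Of 26 genes that NF-κB induces to limit or extend its own activity, 10 were lower on day 3 and 0 higher (median log2 fold change -0.37). Nfkbia, the inhibitor that holds NF-κB in the cytoplasm, had 56.9, 51.7 and 51.7 CPM on day 3, against 141, 107 and 139.6 CPM at 24 h. Control libraries had 64.8, 66.9 and 60.4 CPM. Day 3 was below 24 h in every library, and also below every control library (log2 fold change -1.28 ± 0.17 (SE), edgeR adjusted p = 8.38e-06). The subunits of the alternative pathway, Relb and Nfkb2, fell by 1.16 ± 0.19 and 0.88 ± 0.14 on the log2 scale (SE, edgeR adjusted p = 0.000337 and 0.000131). Tnip1, an adaptor of the deubiquitinase that restrains NF-κB, fell by 0.66 ± 0.12 (adjusted p = 0.000314, edgeR). These 4 and Nfkbie were the members still called without the first 24 h library, and 5 were called when the 6 libraries were fitted alone. In bulk libraries, fewer cells that make a transcript and less RNA per cell cannot be told apart, here and below.

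**Figure D2:**
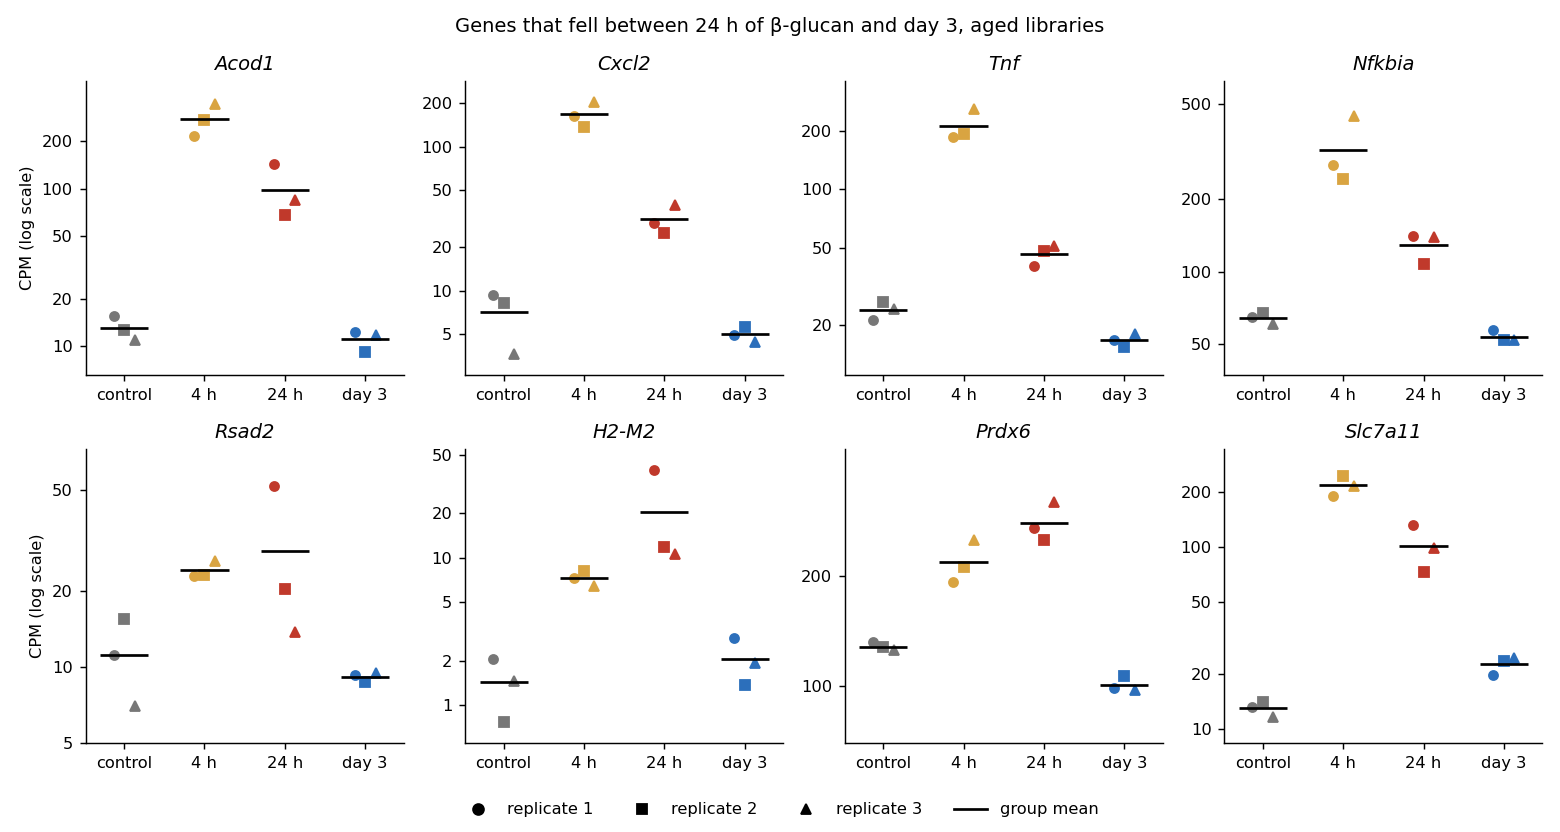
CPM on a log scale of 8 genes in the aged libraries of control, 4 h, 24 h and day 3, with symbols for replicates and lines for the arithmetic mean of 3 libraries. For each of the 8 genes all day 3 libraries lie below all 24 h libraries. Prdx6 had 98.4, 106 and 97.5 CPM on day 3 and 251 to 317 CPM at 24 h, and in Rsad2 and H2-M2 replicate 1 of 24 h is the highest point of the panel.

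Acod1 and Ass1, enzymes of the activated macrophage, fell. Acod1 (ENSMUSG00000022126, mm10 chromosome 14, 103046977 to 103056573, forward strand), the enzyme that makes itaconate from a citric acid cycle intermediate, had 12.2, 9.13 and 11.9 CPM on day 3, against 144, 68 and 84.3 CPM at 24 h. Control libraries had 15.4, 12.6 and 11 CPM. The 24 h libraries were apart from both other groups, which overlapped each other (log2 fold change -3.15 ± 0.33 (SE), edgeR adjusted p = 3.98e-07). Without the first 24 h library its log2 fold change was -2.78 (adjusted p = 6.01e-06, edgeR). Ass1, which rebuilds arginine from citrulline, had 19.8, 14.9 and 15 CPM on day 3, 64.4, 48.7 and 64 CPM at 24 h and 13.3, 11 and 11.4 CPM in control (log2 fold change -1.83 ± 0.21 (SE), edgeR adjusted p = 1.03e-06), so that day 3 lay below every 24 h library and above every control library. Of the 9 genes of arginine and itaconate metabolism 3 were lower, with Gch1, the first enzyme of tetrahydrobiopterin synthesis (log2 fold change -0.56 ± 0.14 (SE), edgeR adjusted p = 0.0229), and 0 were higher. Gch1 was not called without the first 24 h library (-0.51, adjusted p = 0.192, edgeR), and 2 of the 9 were called then, without the second or the third day 3 library, or fitted alone. Slc2a6, a sugar transporter of lysosomal membranes, was the 1 called member of 25 glycolysis and hypoxia genes (log2 fold change -1.17 ± 0.21 (SE), edgeR adjusted p = 0.00105).

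Many genes that the transcription factor NRF2 controls against oxidants fell. Of 27, 13 were lower on day 3 and 0 higher, the fitted change was below 0 for all 27, and the list mean was 7.42, 7.38 and 7.41 log2 CPM on day 3, against 8.06, 7.86 and 7.99 log2 CPM at 24 h and 7.40, 7.37 and 7.49 log2 CPM in control. The list mean at 24 h was thus apart from both other groups, which overlapped, and none of the 27 was called against control on day 3. Prdx6, a peroxiredoxin that repairs oxidised membrane lipids, had 98.4, 106 and 97.5 CPM on day 3, against 270.2, 251 and 317 CPM at 24 h. Control libraries had 132, 127 and 125 CPM. All 3 groups were separate, with day 3 lowest (log2 fold change -1.47 ± 0.12 (SE), edgeR adjusted p = 1.6e-11). Leaving out the first 24 h library gave -1.49 (adjusted p = 9e-11, edgeR). Slc7a11, the cystine importer that feeds glutathione synthesis, had 19.8, 23.7 and 24.5 CPM on day 3 and 133, 73.3 and 99.2 CPM at 24 h. Control libraries had 13.2, 14.2 and 11.7 CPM. Its day 3 libraries were below all 24 h and above all control libraries (log2 fold change -2.17 ± 0.35 (SE), edgeR adjusted p = 0.000255), while day 3 against control did not pass (log2 fold change 0.80 ± 0.35 (SE), edgeR adjusted p = 0.575). Gsta3, a glutathione transferase, and Gsr, the reductase that regenerates glutathione, fell by 1.56 ± 0.21 and 0.66 ± 0.11 on the log2 scale (SE, adjusted p = 1.77e-05 and 9.09e-05, edgeR). Of the 27, 9 were lower without the second day 3 library or, when the 2 groups were fitted alone, 8. Without the first 24 h library 7 of the 27 were lower, the 4 above with Prdx1, Txn1 and Taldo1. Hmox1, which degrades haem and is often read as an NRF2 target, was at 903, 645 and 754 CPM on day 3, 819.7, 1049 and 1196 CPM at 24 h and 1025, 738 and 843 CPM in control, and its change did not pass (log2 fold change -0.41 ± 0.24 (SE), edgeR adjusted p = 0.576).

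Most receptors for microbes did not pass, and those that did mostly fell. Of 40 pattern-recognition receptors and adaptors 8 were lower on day 3 and 1 higher. Tlr2 (ENSMUSG00000027995, mm10 chromosome 3, 83836272 to 83841767, reverse strand), the receptor of bacterial lipoproteins, had 71.4, 101 and 85.6 CPM on day 3, against 187, 182 and 191 CPM at 24 h. Control libraries had 120.0, 145 and 114 CPM. All 24 h libraries were above and all day 3 libraries below the control libraries (log2 fold change -1.12 ± 0.13 (SE), edgeR adjusted p = 2.92e-07). It was the 1 gene of the 922 called on one side of control at 24 h (log2 fold change 0.56 ± 0.13 (SE), edgeR adjusted p = 0.00388) and on the other on day 3 (log2 fold change -0.56 ± 0.13 (SE), edgeR adjusted p = 0.0407). Clec4e and Clec4n, the lectins Mincle and Dectin-2 that bind fungal and mycobacterial glycans, fell by 2.33 ± 0.32 and 1.34 ± 0.22 on the log2 scale (SE, adjusted p = 3.03e-05 and 0.000375, edgeR). These and Tlr2 were the 3 falls of the list still called without the first 24 h library, 5 were called without the first or the third day 3 library, and 1 when the 6 libraries were fitted alone. Syk and Malt1, which carry the Dectin-1 signal, were lower too (-0.40 and -0.53 on the log2 scale, edgeR adjusted p = 0.0123 and 0.0189). Leaving out the first 24 h library gave values of -0.21 and -0.26, which did not pass (adjusted p = 0.55 and 0.637, edgeR). Clec7a itself, the receptor of the stimulus, had 276, 338 and 308 CPM on day 3, 536, 272 and 262 CPM at 24 h and 232, 294 and 215 CPM in control, with overlapping groups (log2 fold change -0.21 ± 0.23 (SE), edgeR adjusted p = 0.83). Tlr4, which detects lipopolysaccharide, was at 77.5, 95.7 and 87.3 CPM on day 3 and 89, 91.4 and 83.5 CPM at 24 h (log2 fold change -0.02 ± 0.13 (SE), edgeR adjusted p = 0.99). Control libraries had 92.8, 115 and 82.2 CPM. Tlr13, an endosomal receptor of bacterial ribosomal RNA, was the member that rose (log2 fold change 0.44 ± 0.12 (SE), edgeR adjusted p = 0.0437), and without the first 24 h library its value of 0.36 did not pass (adjusted p = 0.414, edgeR). Marco, a scavenger receptor, had 24.3, 53.3 and 49.2 CPM on day 3 and 79.8, 214 and 236 CPM at 24 h. Control libraries had 46.4, 86.9 and 89.5 CPM. Its replicates differed in every group, replicate 1 being the lowest each time, and the day 3 libraries lay below all 24 h libraries (log2 fold change -2.07 ± 0.51 (SE), edgeR adjusted p = 0.0206).

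Some genes of complement and coagulation fell. Of 23, 5 were lower on day 3 and 0 higher, namely C3, Cfb, Cfp, F10 and Procr. The count was 3 without the first 24 h library and 2 when the 6 libraries were fitted alone. Cfb and F10 were at -2.65 and -1.05 without that library (adjusted p = 0.0755 and 0.194, edgeR). C3, the hub of the complement cascade, had 49.5, 40.9 and 50.1 CPM on day 3, against 804, 156 and 151 CPM at 24 h. Control libraries had 71.6, 75.4 and 53.7 CPM. The first 24 h library was above the other 24 h libraries, and all 3 were above day 3 and control (log2 fold change -2.98 ± 0.45 (SE), edgeR adjusted p = 0.000152, and -1.71 without that library, adjusted p = 0.00578, edgeR). Fpr2, a receptor of formylated peptides and lipid mediators, had 1.10, 1.16 and 1.72 CPM on day 3 and 18.9, 4.82 and 5.48 CPM at 24 h (log2 fold change -2.88 ± 0.42 (SE), edgeR adjusted p = 7.64e-05). Control libraries had 3.50, 4.27 and 2.72 CPM. Day 3 was below both other groups, and its difference from control did not pass (log2 fold change -1.39 ± 0.45 (SE), edgeR adjusted p = 0.305).

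Interferon-stimulated genes, the antiviral transcripts that interferon signalling drives through a promoter element, mostly passed only with the first 24 h library included. Of 43 tested, 24 were lower on day 3, 0 were higher and the fitted change was below 0 for all 43 (median -0.87). Without the first 24 h library 2 of 43, Lgals3bp and Bst2, were called lower, named here because the count is small, and the median was -0.50 with 41 of 43 below 0. The count was 8 without the second day 3 library, 11 without the third and 1 when the 6 libraries were fitted alone. The list mean was 3.71, 3.43 and 3.51 log2 CPM on day 3, against 5.24, 4.35 and 3.86 log2 CPM at 24 h and 3.87, 3.74 and 3.36 log2 CPM in control, so day 3 was below every 24 h library and within the control range. In young cells, which are other libraries, 40 of the 43 were lower on day 3 than at 24 h (median -1.51), where 3.77% of all genes were. Most young 24 h libraries also had the high interferon level described above, and the young count is not given without them. The labels do not say whether young and aged cells shared a culture or harvest. The promoters of Cxcl10, a chemokine for T cells, Ifit1, which binds foreign RNA, and Isg15, a ubiquitin-like protein, are shown because these genes fell together and carry the element. Each is the 250 bases before the start of transcription in RefSeq (GRCm38.p6), 5′ to 3′ on the strand of the gene, at chr5:92348890-92349139 (reverse strand), chr19:34640639-34640888 (forward) and chr4:156200819-156201068 (reverse), with matches to the core of the interferon-stimulated response element in capitals. The core was searched as GAAA, any 2 bases and GAAA, on either strand.
Cxcl10: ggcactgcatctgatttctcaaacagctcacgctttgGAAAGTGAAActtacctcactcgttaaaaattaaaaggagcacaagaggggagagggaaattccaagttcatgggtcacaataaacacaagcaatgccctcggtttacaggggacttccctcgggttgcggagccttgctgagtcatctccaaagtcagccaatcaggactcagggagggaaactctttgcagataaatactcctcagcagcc
Ifit1: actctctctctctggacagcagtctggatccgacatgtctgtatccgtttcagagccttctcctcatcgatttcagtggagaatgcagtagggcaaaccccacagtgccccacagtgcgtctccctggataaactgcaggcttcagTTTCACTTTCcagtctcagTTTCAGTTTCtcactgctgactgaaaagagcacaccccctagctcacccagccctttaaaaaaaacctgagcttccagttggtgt
Isg15: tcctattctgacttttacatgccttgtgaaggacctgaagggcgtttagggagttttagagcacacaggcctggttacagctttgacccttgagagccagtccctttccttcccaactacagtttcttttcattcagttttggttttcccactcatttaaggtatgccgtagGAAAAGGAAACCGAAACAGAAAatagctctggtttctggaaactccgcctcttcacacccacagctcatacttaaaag

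The match begins at -213 from the start in Cxcl10, at -104 and -85 in Ifit1, and at -78, -72 and -66 in Isg15, where the matches overlap. In windows from 250 bases before to 50 after the start, the core was present in 20 of the 33 list members with a promoter in the RefSeq table (60.6%) and in 1079 of 27025 genes (3.99%). It was present in 10 of 16 members that were lower on day 3 and in 10 of 16 that did not pass, and 1 matched member was not tested. In the same windows Rsad2 held 1 match and Irf7 held 0, and both were lower on day 3 as well.

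Cxcl10 had 0.487, 0.695 and 0.712 CPM on day 3, against 12.5, 2.68 and 1.39 CPM at 24 h. Control libraries had 1.77, 2.12 and 0.94 CPM. Day 3 was below every 24 h and every control library, and the first 24 h library was several times above the others (log2 fold change -3.15 ± 0.61 (SE), edgeR adjusted p = 0.0024, adjusted p = 0.232 without the first 24 h library). Ifit1 had 3.36, 4.34 and 3.11 CPM on day 3, 30.6, 11.5 and 6.83 CPM at 24 h and 6.68, 7.88 and 2.17 CPM in control, with day 3 below 24 h in every library and within the control range (log2 fold change -2.19 ± 0.44 (SE), edgeR adjusted p = 0.00294, adjusted p = 0.176 without the first 24 h library). Isg15 had 5.04, 2.16 and 3.40 CPM on day 3 and 15.9, 9.20 and 4.34 CPM at 24 h, ranges that overlapped, with 4.06, 2.89 and 1.81 CPM in control (log2 fold change -1.46 ± 0.37 (SE), edgeR adjusted p = 0.0277, adjusted p = 0.516 without the first 24 h library). Rsad2, which makes a chain-terminating nucleotide, and Irf7, the factor that amplifies interferon production, were lower by 1.65 ± 0.33 and 1.54 ± 0.35 on the log2 scale (SE, adjusted p = 0.00308 and 0.0111, edgeR). Their values without the first 24 h library, -0.90 and -0.95, did not pass (adjusted p = 0.209 and 0.378, edgeR). Of 19 genes more typical of interferon-γ, Gbp2, Gbp5, Socs1 and Cd274 were lower (list median -1.26). Socs1 and Cd274 were still called without the first 24 h library (median -0.24), and Gbp2 and Gbp5 were not (-0.74 and -0.89, adjusted p = 0.749 and 0.842, edgeR). Leaving out any 1 day 3 library gave 2 calls, and the 6 libraries fitted alone gave 0. Cd274, the checkpoint ligand PD-L1, had 39.6, 43.8 and 36.1 CPM on day 3, against 150.1, 78.9 and 89.4 CPM at 24 h. Control libraries had 29.8, 30 and 26.5 CPM. The 3 groups were separate (log2 fold change -1.41 ± 0.14 (SE), edgeR adjusted p = 1.25e-08), also without the first 24 h library (-1.08, adjusted p = 2.14e-08, edgeR).

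**Figure D3:**
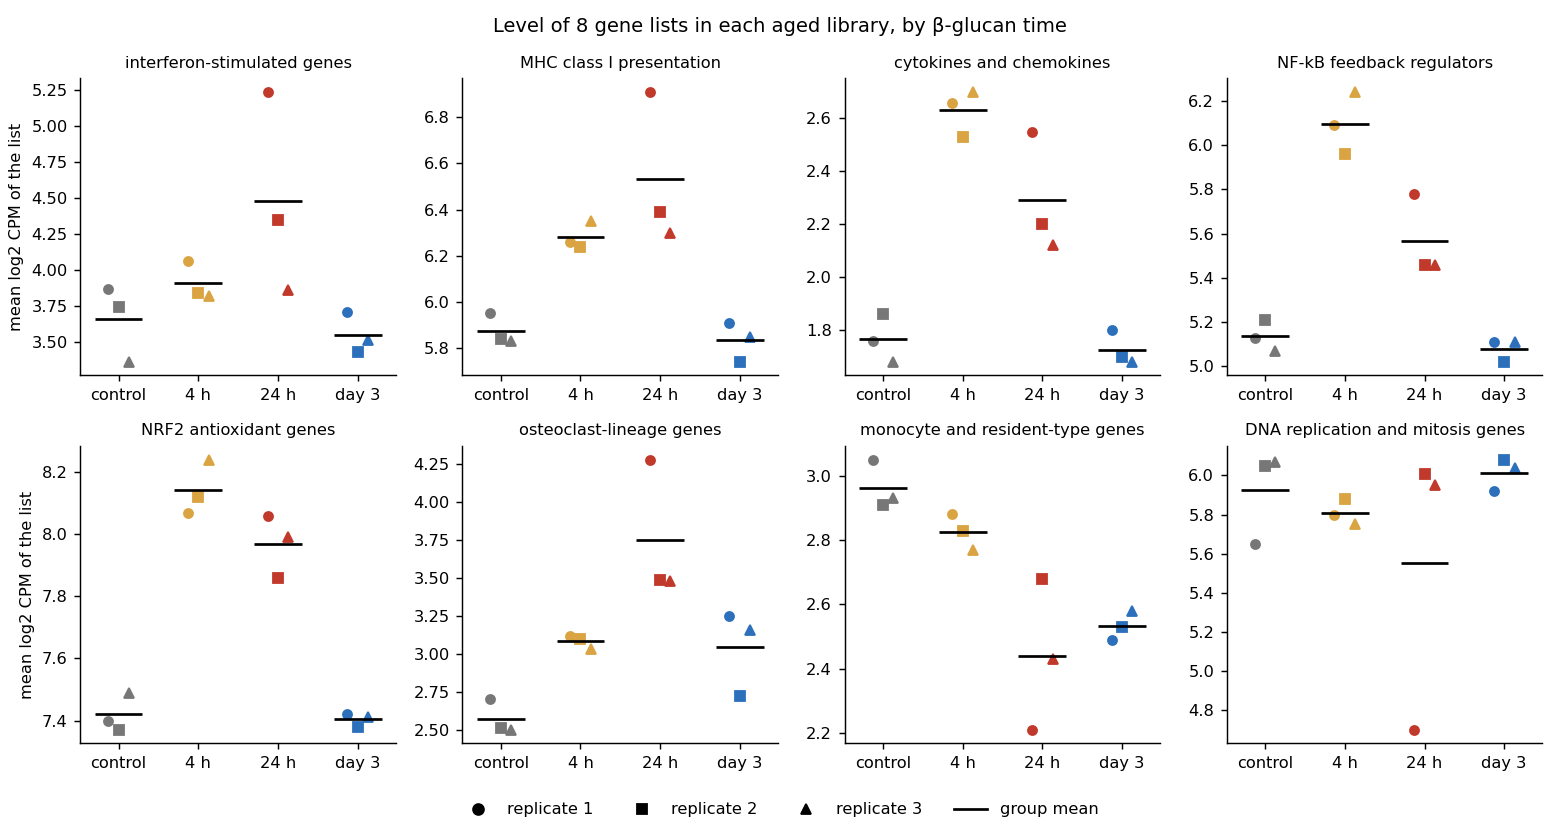
Mean log2 CPM over the tested members of 8 gene lists in each aged library, by treatment (control, 4 h, 24 h and day 3), with symbols for replicates and lines for the mean of 3 libraries. Interferon-stimulated genes ran from 3.86 to 5.24 at 24 h and from 3.43 to 3.71 on day 3. NRF2 antioxidant genes lay at 7.38 to 7.42 on day 3, and in the panel of replication and mitosis genes the first 24 h library, at 4.70, is alone below 5.6.

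Some genes of class I and of class II antigen presentation fell. Of 23 genes of MHC class I presentation 13 were lower on day 3 and 0 higher (median log2 fold change -0.50), and none of the 23 was called against control on day 3. H2-M2, a non-classical class I heavy chain, had 2.84, 1.37 and 1.94 CPM on day 3, against 39.1, 11.8 and 10.7 CPM at 24 h. Control libraries had 2.07, 0.775 and 1.47 CPM. Its 24 h libraries were apart from the other groups (log2 fold change -3.30 ± 0.39 (SE), edgeR adjusted p = 3e-06) with the first left out too (-2.43, adjusted p = 8.97e-06, edgeR). Tapbp, the chaperone tapasin that helps load peptides, was at 262, 217 and 255 CPM on day 3 and 580.2, 362 and 337 CPM at 24 h (log2 fold change -0.80 ± 0.15 (SE), edgeR adjusted p = 0.00074). Control libraries had 226, 229 and 245 CPM. Day 3 and control overlapped, and 24 h was above both. H2-Q6 and H2-Q7 also fell (log2 fold changes -2.50 and -3.24), but these genes are near-identical copies and the split of reads between them is uncertain. Those 4 were the class I members called without the first 24 h library, and the count was 8 without the second day 3 library, 7 without the third and 3 when the 6 libraries were fitted alone. Of 13 class II genes 4 were lower, Cd74, H2-Aa, H2-Ab1 and H2-Eb1, and without that library 0 were, with a list median of -0.09 in place of -0.79. Without the second day 3 library 1 was called. Cd74, the invariant chain of class II, had 19.9, 9.34 and 16.3 CPM on day 3, against 165, 26.7 and 20.4 CPM at 24 h. Control libraries had 22, 14.5 and 12.1 CPM. Of the other 24 h libraries 1 was above and 1 within the control range. In the first library B and plasma cell markers had a mean of 1.28 log2 CPM, against 0.81 and 0.46 log2 CPM in the other 24 h libraries. Their part in the class II values was not tested.

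Genes of the osteoclast lineage, a fate that macrophages share precursors with, stood above control at 24 h and on average lay between 24 h and control on day 3. Of 13 tested, 9 had been higher than control at 24 h (4.02% of all genes were), 3 fell between 24 h and day 3, and 1 was higher than control on day 3. Without the first 24 h library 2 fell, Acp5 and Met, and the median log2 fold change was -0.22 in place of -0.56. When the 6 libraries were fitted alone, 1 of 12 tested fell. The list mean was 3.25, 2.72 and 3.16 log2 CPM on day 3, against 4.28, 3.49 and 3.48 log2 CPM at 24 h and 2.70, 2.51 and 2.50 log2 CPM in control, with day 3 between the other groups and touching neither. Acp5, the tartrate-resistant phosphatase, had 1.95, 1.18 and 1.84 CPM on day 3 and 6.12, 4.84 and 4.08 CPM at 24 h (log2 fold change -1.59 ± 0.23 (SE), edgeR adjusted p = 1.62e-05). Control libraries had 1.11, 1.10 and 0.537 CPM. Its 3 groups were separate, with day 3 in between. Met, the receptor of hepatocyte growth factor, had 7.18, 3.30 and 5.10 CPM on day 3, 29, 14.4 and 19.1 CPM at 24 h and 3.97, 2.27 and 2.12 CPM in control (log2 fold change -1.99 ± 0.33 (SE), edgeR adjusted p = 0.000337), a fall seen in every library. Atp6v0d2, a proton pump subunit, and Ctsk, a collagen-degrading protease, had log2 fold changes of -0.29 and -0.33 that did not pass (edgeR adjusted p = 0.767 and 0.727). The lipid sensor LXRα (Nr1h3) fell by 1.06 ± 0.18 and its target Abca1, a cholesterol exporter, by 0.65 ± 0.16 on the log2 scale (SE, edgeR adjusted p = 0.000309 and 0.0226), the only called members of 18, and Abca1, at -0.42, was not called without the first 24 h library (adjusted p = 0.455, edgeR). Leaving out any 1 day 3 library left 1 of the 18 called, and fitting the 6 libraries alone left 0. Ednrb, the endothelin B receptor, fell by 2.05 ± 0.33 (adjusted p = 0.000236, edgeR).

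Rises were fewer and smaller. Atp2a3, a calcium pump of the endoplasmic reticulum, had 72.6, 72.9 and 87.5 CPM on day 3, against 41.5, 48.5 and 45 CPM at 24 h. Control libraries had 43.5, 55.4 and 72.1 CPM. Every day 3 library exceeded every other one (log2 fold change 0.79 ± 0.15 (SE), edgeR adjusted p = 0.00175). Lsp1, an actin-binding protein of leukocytes, had 54.9, 66.1 and 68.5 CPM on day 3 and 35.5, 42.8 and 37.6 CPM at 24 h (log2 fold change 0.71 ± 0.12 (SE), edgeR adjusted p = 0.000212). Control libraries had 48.3, 52.1 and 63.6 CPM. Qpct, which cyclises terminal glutamine and protects chemokines, had 45.8, 39.9 and 36.5 CPM on day 3 and 25, 25.9 and 24.5 CPM at 24 h (log2 fold change 0.70 ± 0.13 (SE), edgeR adjusted p = 0.00113). Control libraries had 37.5, 37.3 and 37.2 CPM. In both genes 24 h was the low group and day 3 overlapped control, and all 3 rises were called without the first 24 h library too. The lysosomal hydrolases Arsb and Ppt1, the integrin subunit Itgb5, the histone deacetylase Hdac9 and the serine synthesis enzyme Psat1 rose by 0.40 to 0.77 on the log2 scale. Without that library they were still above 0, at 0.28 for Itgb5 to 0.60 for Hdac9, and did not pass (edgeR adjusted p = 0.0616 for Arsb to 0.493 for Itgb5). The lysosomal cathepsin gene Ctsz was lower (log2 fold change -0.44 ± 0.10 (SE), edgeR adjusted p = 0.00433), and at -0.36 was not called without that library (adjusted p = 0.108, edgeR). None of 27 genes of cholesterol and fatty acid synthesis was called. Of 18 cell cycle inhibitors and p53 targets 2 were lower, Mdm2, the ligase that degrades p53 (log2 fold change -0.42 ± 0.09 (SE), edgeR adjusted p = 0.00398), and Gadd45a, a stress sensor (log2 fold change -0.66 ± 0.17 (SE), edgeR adjusted p = 0.0249). Gadd45a was not called without the first 24 h library (-0.58, adjusted p = 0.222, edgeR). Of the 18, 1 was called without that library or without the second or the third day 3 library, and 0 when the 6 libraries were fitted alone. Flt1, a receptor of vascular endothelial growth factor, had 17.9, 23.7 and 25.8 CPM on day 3 and 4.68, 14.6 and 13 CPM at 24 h (log2 fold change 1.06 ± 0.27 (SE), edgeR adjusted p = 0.0274). Control libraries had 17.1, 23.7 and 26.9 CPM. Here the first 24 h library was the lowest of the 9, and without it the rise was 0.70 (adjusted p = 0.295, edgeR). None of 48 replication and mitosis genes was called in either direction by edgeR or DESeq2, although the fitted change was above 0 for all 48 (median 0.35). The median was 0.06 without the first 24 h library, and 15 of 48 were below 0. Mki67, a marker of cycling cells, had 298, 424 and 382 CPM on day 3 and 104, 317 and 317 CPM at 24 h. Control libraries had 246, 427 and 375 CPM. The first library of 24 h was the lowest of all, and the groups overlapped.

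Of the 28 genes that persisted, 23 were above control at both times. They and the other genes of this and the next paragraphs that the rule for named genes did not take were named after their values were seen. Without the first or the third day 3 library 2 and 4 genes persisted, and without the first or the second control library 8 and 2. Over all tested genes, day 3 and control libraries did not overlap for 12.4%, and 24 h and control libraries for 21.5%. Lgals3 (ENSMUSG00000050335, mm10 chromosome 14, 47367751 to 47386160, forward strand), the β-galactoside-binding lectin of phagocytes, had 1947, 1589 and 1865 CPM on day 3 and 2360.1, 2056 and 2050.1 CPM at 24 h. Control libraries had 1115, 899 and 1277 CPM. Day 3 was above every control library and below every 24 h library (log2 fold change 0.71 ± 0.14 (SE), edgeR adjusted p = 0.0107 against control), and the step down between 24 h and day 3 did not pass (log2 fold change -0.26 ± 0.14 (SE), edgeR adjusted p = 0.492). Gpnmb, a transmembrane glycoprotein of lipid-laden and phagocytic macrophages, had 12302, 10649 and 11503 CPM on day 3, against 12585, 9656 and 9883 CPM at 24 h. Control libraries had 8208, 7309.6 and 8190.3 CPM (log2 fold change 0.54 ± 0.11 (SE), edgeR adjusted p = 0.0129 against control). Day 3 and 24 h overlapped, and both were above control. Mfge8, a bridge between phagocytes and dying cells, had 411, 291 and 364 CPM on day 3, 308, 233 and 255 CPM at 24 h and 207, 152 and 217 CPM in control (log2 fold change 0.89 ± 0.14 (SE), edgeR adjusted p = 0.00208 against control), with the highest mean on day 3.

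Dio2, the deiodinase that activates thyroid hormone, had the one persisting change that passed under every alternative tried. It had 11.9, 10.3 and 7.89 CPM on day 3 and 29.7, 11.8 and 10.8 CPM at 24 h. Control libraries had 1.51, 1.49 and 1.70 CPM (log2 fold change 2.68 ± 0.34 (SE), edgeR adjusted p = 3.62e-05 against control, 0.0317 at most over 15 alternatives). Day 3 overlapped 24 h and was above control in every library. Cdkn1c, an inhibitor of cyclin-dependent kinases, had 8.55, 7.28 and 9.50 CPM on day 3, against 74.3, 9.41 and 13.3 CPM at 24 h. Control libraries had 1.05, 0.718 and 0.611 CPM (log2 fold change 3.43 ± 0.71 (SE), edgeR adjusted p = 0.0269 against control). Its first 24 h library was several times above the rest, and day 3 was above every control library. Il7r, the interleukin-7 receptor, had 115, 109 and 101 CPM on day 3, against 79, 58.5 and 56.4 CPM in control. Npy, neuropeptide Y, had 60.6, 48.7 and 60.1 CPM on day 3, against 35.8, 22.4 and 36.7 CPM in control. Both were above control in every day 3 library. Between day 3 and 24 h their log2 fold changes were 0.00 ± 0.16 and 0.03 ± 0.14 (SE). Itgb3, the integrin β3 chain of osteoclasts, had 33.9, 28.9 and 34.7 CPM on day 3 and 72.5, 29.97 and 31 CPM at 24 h. Control libraries had 10.5, 16.5 and 16.2 CPM (log2 fold change 1.17 ± 0.26 (SE), edgeR adjusted p = 0.0439 against control). Day 3 fell within the wide 24 h range or just under it and stayed above control. Vim, the intermediate filament vimentin, had 2265, 1881 and 2245 CPM on day 3, 2018, 2138 and 2384 CPM at 24 h and 1484, 1469.6 and 1633 CPM in control. Cd200, Layn, L1cam, Pdpn, Dusp8, Hipk2, Arfgef3, Gla, Slc39a6 and Gpr137b had log2 differences from control of 0.35 to 1.93 on day 3. Of these, Dusp8 and Pdpn were low, at 0.93 to 1.90 and 1.37 to 2.28 CPM on day 3. Their control libraries had 0.18 to 0.53 and 0.28 to 0.85 CPM. None of these genes kept the call against control under every alternative, and the calls of Dusp8 and Gla ended under 8 of 15.

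**Figure D4:**
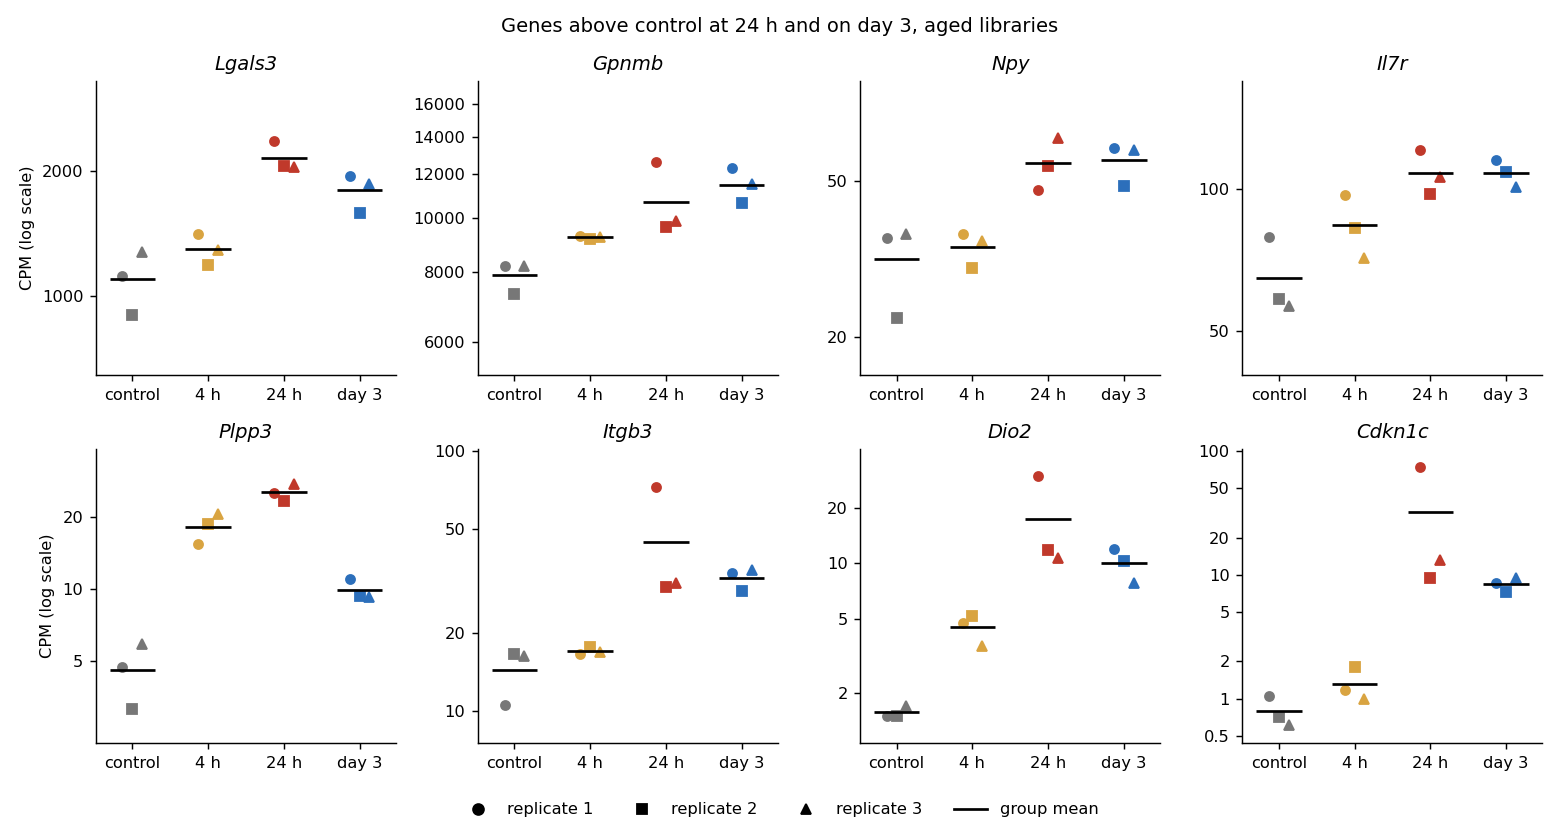
CPM on a log scale of 8 genes called above control at 24 h and on day 3, in the aged libraries of control, 4 h, 24 h and day 3, with symbols for replicates and lines for the arithmetic mean of 3 libraries. In all 8 panels every day 3 library lies above every control library. The 8 genes were taken from those called against control on day 3, and 12.4% of all tested genes had no overlap of these groups in either direction. Plpp3 shows a partial return, with 9.32 to 11.0 CPM on day 3, 23.4 to 27.7 CPM at 24 h and 3.15 to 5.86 CPM in control.

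Partial return was called in 3 genes, Procr, Plpp3 and Rnh1. Procr, the receptor that presents protein C for activation, had 9.24, 5.19 and 7.76 CPM on day 3, against 35.3, 19.1 and 26.1 CPM at 24 h. Control libraries had 4.12, 3.46 and 2.85 CPM. The 3 groups were separate: day 3 was below 24 h (log2 fold change -1.85 ± 0.21 (SE), edgeR adjusted p = 1.03e-06) and above control (log2 fold change 1.11 ± 0.23 (SE), edgeR adjusted p = 0.0269). Plpp3, a phosphatase that degrades bioactive phospholipids at the cell surface, was likewise below 24 h (log2 fold change -1.37 ± 0.19 (SE), edgeR adjusted p = 1.13e-05) and above control (log2 fold change 1.10 ± 0.20 (SE), edgeR adjusted p = 0.0049), and Rnh1, the ribonuclease inhibitor, had 372, 335 and 368 CPM on day 3 and 445, 427 and 445 CPM at 24 h. Control libraries had 268, 267 and 309 CPM. Day 3 lay between the others without overlap. Slc6a4, a serotonin transporter, was the 24th gene above control on day 3, with 0.22, 0.0965 and 0.128 CPM on day 3 and 0 counts in every control library, and no fold is given.

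Below control on day 3 were 15 genes. Among them 5 had been lower at 24 h as well: F13a1, Ms4a6b, Pts, Adgb and BE692007. F13a1, the A subunit of clotting factor XIII and a marker of monocytes and tissue macrophages, had 3.02, 5.27 and 5.61 CPM on day 3, against 3.06, 9.02 and 10.6 CPM at 24 h. Control libraries had 20.2, 19.2 and 17.7 CPM. Both β-glucan groups were below control without exception, and day 3 overlapped 24 h (log2 fold change -2.04 ± 0.36 (SE), edgeR adjusted p = 0.00754 against control). Pts, an enzyme of tetrahydrobiopterin synthesis, had 19.3, 18.6 and 18.6 CPM on day 3, 19.6, 17.7 and 17.4 CPM at 24 h and 28.9, 25.2 and 26.5 CPM in control, below control at both times, and its change since 24 h did not pass (log2 fold change 0.04 ± 0.10 (SE), edgeR adjusted p = 0.945). The named resident-type genes Fcrls, Mrc1, Stab1 and Fcgr2b had log2 differences from control of -1.38 to -0.58 at 24 h that passed, and were at -0.73, -0.43, -0.45 and -0.48 on day 3, which did not pass, nor did their change in between. Cx3cr1, the fractalkine receptor, had 175, 235 and 222 CPM on day 3, 17.2, 192 and 193 CPM at 24 h and 299, 320.5 and 271 CPM in control, with the low value in the first 24 h library, and no comparison passed.

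Another 6 of the 15 were late, lower on day 3 than in control and than at 24 h, with no call at 24 h: Fpr1, Pilrb1, Ier3, Aif1, Ggt5 and Zfp456. The fall of Ggt5 since 24 h did not pass without the first 24 h library (-0.83, adjusted p = 0.0516, edgeR). No gene was late in the upward direction. Fpr1, the high-affinity receptor of bacterial formyl peptides, had 2.01, 2.61 and 3.47 CPM on day 3, against 8.67, 6.90 and 6.95 CPM at 24 h. Control libraries had 7.19, 7.84 and 5.85 CPM. Day 3 was below both other groups, which overlapped (log2 fold change -1.37 ± 0.23 (SE), edgeR adjusted p = 0.0049 against control, log2 fold change -1.49 ± 0.23 (SE), edgeR adjusted p = 0.00018 against 24 h). Pilrb1, an activating receptor paired with an inhibitory one, had 3.91, 3.47 and 4.37 CPM on day 3, 9.14, 10.7 and 7.49 CPM at 24 h and 9.09, 10.3 and 6.50 CPM in control (log2 fold change -1.13 ± 0.17 (SE), edgeR adjusted p = 0.000695 against control), and this difference passed under all 15 alternatives. Aif1, the calcium-binding protein Iba1 of macrophages, had 28.6, 33.9 and 33.8 CPM on day 3 and 72, 60.9 and 60.8 CPM at 24 h. Control libraries had 54.8, 61.2 and 43.6 CPM (log2 fold change -0.73 ± 0.14 (SE), edgeR adjusted p = 0.0129 against control). Day 3 was the low group in every library. Ier3, an immediate-early gene of stress and NF-κB, had 8.38, 7.43 and 12 CPM on day 3, 17.6, 21.9 and 18.9 CPM at 24 h and 16.1, 25.5 and 18.6 CPM in control (log2 fold change -1.11 ± 0.24 (SE), edgeR adjusted p = 0.0269 against control), again with day 3 lowest throughout. With Tlr2, the remaining 3 of the 15 were Siglece, an inhibitory receptor of sialic acid, Nfxl1 and D16Ertd472e, whose changes between 24 h and day 3 did not pass. The number of calls against control on day 3 moved with the libraries included. It was 3 without the first day 3 library, 58 without the second and 10 without the third. Leaving out the first, the second or the third control library gave 13, 3 and 49.

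**Figure D5:**
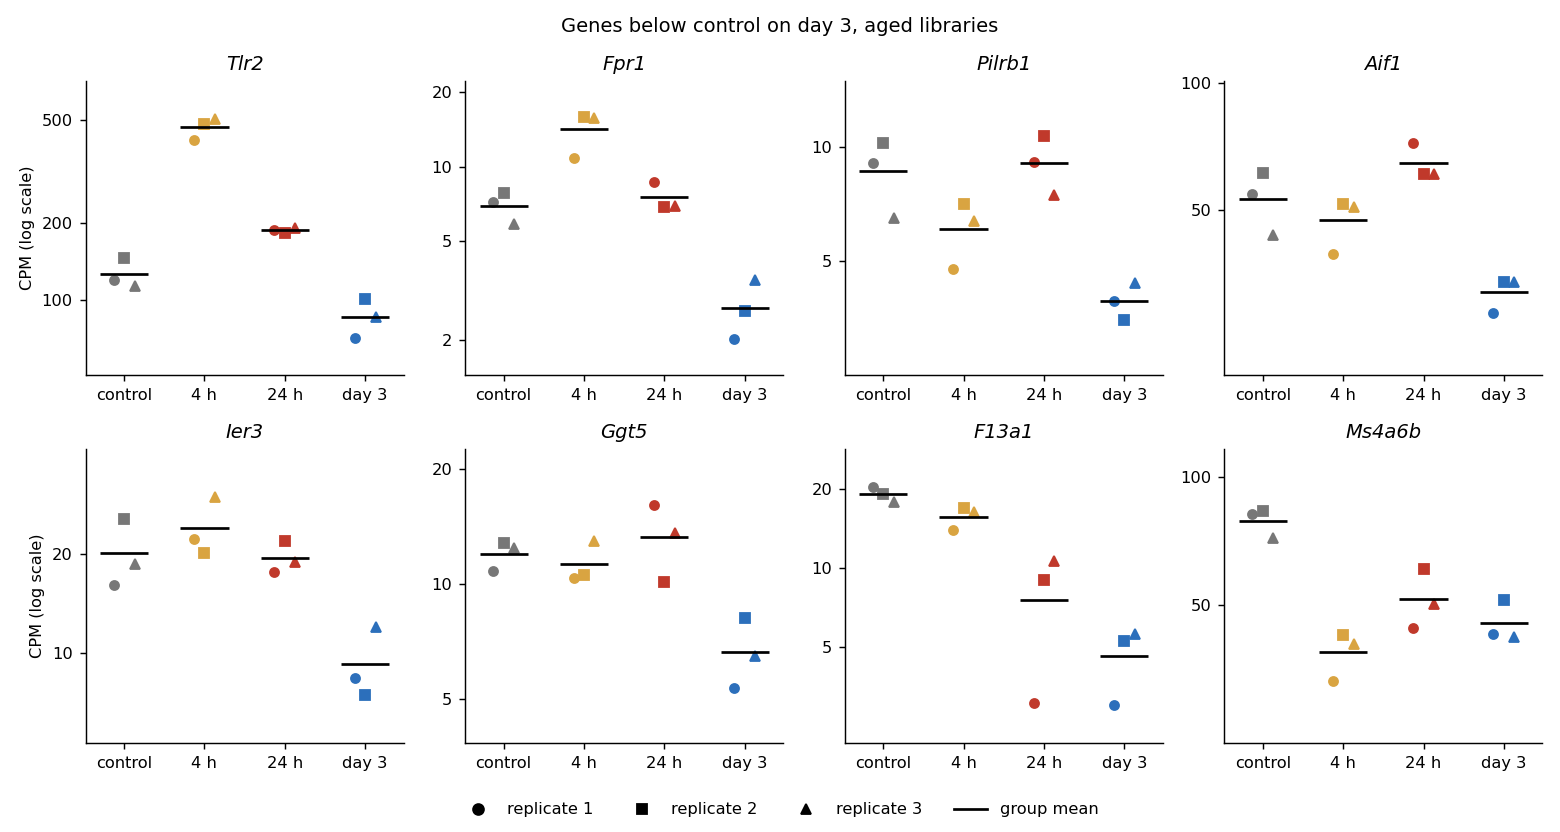
CPM on a log scale of 8 genes below control on day 3 in the aged libraries of control, 4 h, 24 h and day 3, with symbols for replicates and lines for the arithmetic mean of 3 libraries. In all 8 panels every day 3 library lies below every control library. The 8 genes were taken from those called against control on day 3, and 12.4% of all tested genes had no overlap of these groups in either direction. Tlr2 was above control at 4 h and 24 h, whereas F13a1 and Ms4a6b were below it in every 24 h library.

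The same step in young cells called 797 genes (4.52%), with 666 lower (3.77%) and 131 higher (0.742%) on day 3 than at 24 h. A test of the difference between ages called 0 genes with edgeR and 0 with DESeq2, and 395 had an unadjusted p below 0.05. The counts of calls therefore differ between ages without a gene whose change was shown to differ. Leaving out the first young day 3 library gave 1 call, and every other alternative gave 0. For Tlr2 the log2 fold change between 24 h and day 3 was -1.12 ± 0.13 in aged and -0.92 ± 0.13 in young cells, for Acod1 -3.15 ± 0.33 and -2.60 ± 0.31, and for Prdx6 -1.47 ± 0.12 and -1.20 ± 0.11 (SE, 3 libraries a group). The median over the interferon-stimulated genes was -0.87 in aged and -1.51 in young cells, with no member called in the test of the difference, and 2 of 3 young 24 h libraries but 1 of 3 aged ones had the high interferon level described above.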

How the data were processed

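The analysis used the deposited table of raw read counts per gene for 42 libraries, whose values are whole numbers as the authors left them. Alignment used STAR and the mouse build mm10, per the submitters' processing notes, and the counter, the annotation version and the strand setting are not given in the sources used here. Without the strand setting, reads of overlapping or antisense genes cannot be told apart. Libraries were grouped by their labels.

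Counts were fitted with edgeR 4.0.16 in R 4.3.3 (TMM scaling, trended dispersion, robust quasi-likelihood fit with limma 3.58.1) over all 42 libraries, as 12 groups with 1 term for the young replicates numbered 4 to 6, so that all groups shared 1 estimate of the spread. Of 54532 genes, 17648 passed edgeR's filter at a minimum count of 10 and were tested with Benjamini-Hochberg adjustment at 0.05. The aged groups held 3 libraries each, with 42433774 to 67347866 counts in the 9 libraries used most. CPM of single genes are counts scaled to TMM-adjusted library size, whereas the summed levels of cell markers are counts scaled to the total count of the library. List means are of the log2 of TMM-scaled CPM with a small constant added. The mean level of a gene used for naming is in log2 CPM with a prior count of 2. The step was tested on simulated data before use. Genes named are the largest non-overlapping changes per class whose mean level was 3 log2 CPM or more, a fixed list of key genes, and up to 4 called members per gene list and direction, with exceptions named as such in the text. The members and the gene lists were chosen with earlier results of these data known. Alternatives were other scaling (RLE, total counts), other filters, DESeq2 1.42.0, fewer libraries in the fit, a replicate block, and leaving out each replicate. The alternatives for single gene lists, for genes called between day 3 and control, and part of those for named genes were chosen after seeing the data. No set test was run. A few genes are not reported here. P-values set a difference against the spread between libraries, estimated over all 42, and the labels do not say whether a library is 1 mouse or a pool.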

Additional observations from a re-analysis of the deposited data

How the results depend on the processing

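Of 90 named genes called between day 3 and 24 h, 26 stayed called under every alternative tried, 45 lost the call without the first aged 24 h library, 61 lost it when the 6 libraries were fitted alone, and none changed sign. Of 39 genes called between day 3 and control, 2 stayed called throughout. Fitted alone, 79 genes were called between day 3 and 24 h, 214 between 24 h and control, and 44 reversed. With aged libraries without LPS only, 240.0 were called between day 3 and 24 h and 172 reversed. Without any LPS library 3 genes were late. With the replicate block 95 genes were called between day 3 and control, 63 persisted and 18 were late, and with DESeq2 106, 68 and 19. Of the genes lower at 24 h in young cells, 53 were higher on day 3 in aged cells with total counts and 59 with DESeq2. Of those lower after 4 h in aged cells (7 in the reported fit), 13 were with total counts, without LPS libraries and with the block, and 14 with DESeq2. Same-numbered day 3 and 24 h libraries had correlations of 0.0728, 0.0599 and 0.0349 between their deviations from the group means, all below 0.1. Each library correlated best with its own number. The same held for aged 24 h and control (0.0774, 0.045 and 0.0415) and for aged day 3 and control (0.0396, 0.0484 and 0.071), but not for every young library. That is a hint from the data and not the design. As the labels do not say what a number marks, the reported fit did not pair the libraries. The block ended 3 of the 90 calls.

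Leaving out 1 library at a time gave 123 to 451 calls between day 3 and 24 h, 312 to 1062 between 24 h and control, 3 to 58 between day 3 and control, and 0 to 1 for the difference between ages. It gave 74 to 348 reversed, 2 to 38 persisted and 1 to 8 late genes. Of the genes higher at 24 h in young cells 92 to 341 were lower on day 3, of those lower 4 to 41 were higher, and of those higher or lower after 4 h in aged cells 78 to 213 and 0 to 8 were called the other way. The cause of these shifts was not tested, beyond fewer libraries in each fit. With 3 libraries a group, a small change in a gene of few counts is not detectable, and a missed call does not show that a level returned.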
